A study of Mus musculus with 6 samples.

Results

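Hox cluster genes were read in RNA-Seq counts of TuBo cells, a mammary carcinoma line from a BALB/c-MMTV-NeuT mouse that serves as a HER2+ BC model. All 39 genes whose symbol is Hox, a cluster letter from a to d and a number were taken, out of 21960 genes in the deposited counts. The groups were 3 mock libraries, which the labels give as genotype wt, and 3 p140Cap libraries, from cells carrying a retroviral p140Cap cDNA in pBabe-puro. p140Cap cells were selected with puromycin and grown from single cells, and individual positive clones were then pooled. What vector the mock cells carried is not stated in the sources used here, nor whether the 3 libraries of a group came from separate cultures, so p-values measure the spread between these libraries. The labels speak of a Balb-NeuT cell line in one place and of mice in another, and the samples were taken here as the TuBo cells of the study.

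Hox genes encode homeodomain transcription factors that give cells their position along the body axis. In the mouse they lie in 4 clusters, HoxA to HoxD, and genes at the same numbered position of different clusters are paralogues. Low numbers act toward the head, high numbers toward the tail and the ends of the limbs, and the order along the chromosome follows the order along the body. Cells keep their set of active Hox genes through division, with Polycomb proteins holding silent genes off and Trithorax proteins holding active genes on. Mammary epithelium is known to use several of these factors, Hoxa5 and Hoxb7 among the best studied in breast tumors.

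The libraries held between 13770385 and 75506562 reads on genes, with the 3 mock libraries the deepest. Srcin1, which encodes p140Cap, was at 12.8 to 16.6 CPM (counts scaled to the normalized library size) in mock libraries and at 2244 to 2519 CPM in p140Cap libraries, as the labels have it. Of 12 epithelial markers 8 had enough reads for a test, with Krt18 at 1775 to 1826 CPM in mock libraries. Krt5, Krt14 and Trp63 of basal cells and Krt19 of simple epithelium stayed at or below 0.461 CPM in every library. Of the 8 epithelial markers tested 4 were higher and 2 lower in p140Cap cells, where 71.1% of all genes tested were called. Among them were Cldn4 (0.49 on the log2 scale), Epcam (0.42), Cldn7 (-0.41) and Krt7 (-0.84). Of 10 fibroblast and mesenchymal markers, Col1a2, Col3a1, Dcn, Lum and Thy1 had no read, Postn was lower (-1.36) and Col1a1 higher (0.80). The list summed to 19.8 to 20.3 CPM in mock and 15.8 to 18.1 CPM in p140Cap libraries. Of 12 immune and endothelial markers, 6 had no read, among them Ptprc, and Cd68 (0.83) and Pecam1 (1.25) were higher. That list summed to 2.34 to 2.59 CPM in mock and 3.97 to 4.68 CPM in p140Cap libraries. The part of these shifts in the Hox values was not tested.

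Most Hox reads of TuBo cells fell on HoxA up to position 10 and on a short stretch of HoxB. In CPM per kb of exon, Hoxc9 (0.730 in mock cells) nevertheless lay above Hoxa9 (0.287) and Hoxa10 (0.244). HoxA held reads for 9 of its 11 genes, and all 9 had enough reads for a test. HoxB had 3 such genes of 10 (Hoxb2, Hoxb3 and Hoxb4), HoxC had 2 of 9 (Hoxc6 and Hoxc9), and HoxD had none of 9. In the mock libraries, 15361 reads fell on HoxA, 3422 on HoxB, 418 on HoxC and 1 on HoxD. In the p140Cap libraries the numbers were 5642, 1028, 125 and 0. HoxA thus took 80.1% ± 1.43 of all Hox reads in mock cells and 83.1% ± 1.47 in p140Cap cells (SD, n = 3 libraries each), shares that also depend on how long each transcript is. The ranges of this share overlapped between the groups, from 79.2% to 81.8% in mock and from 81.4% to 83.9% in p140Cap libraries.

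**Figure D1:**
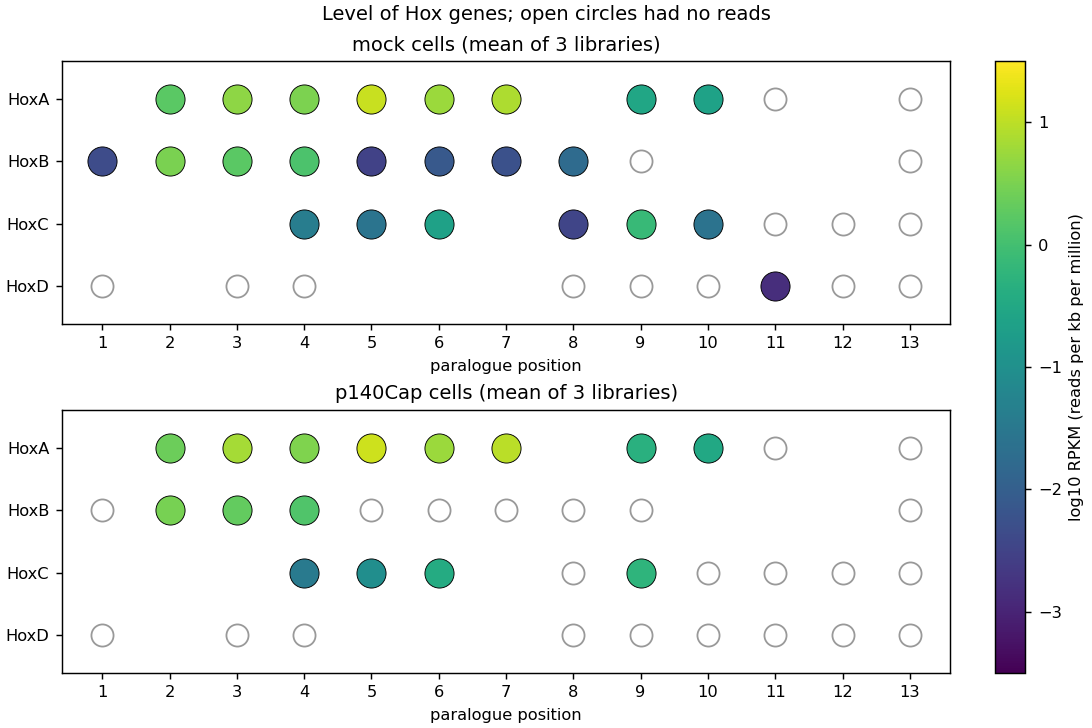
Level of 38 Hox genes by cluster (rows) and paralogue position (columns), as log10 RPKM (CPM per kb of exon), the mean of 3 mock libraries above and 3 p140Cap libraries below. Open circles are genes with no reads in that group, a space without a circle is a position with no gene drawn, and the filled circles of high level lie in HoxA from 2 to 7 and in HoxB from 2 to 4.

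By paralogue position, none of the 3 genes at position 8 (Hoxb8, Hoxc8 and Hoxd8) had enough reads for a test, and neither had any gene at positions 11, 12 and 13. The 9 genes at these last 3 positions, which pattern the limb ends and the hind body, gave a single read in all, for Hoxd11 in mock replicate 2. Members without a read in any library were Hoxa11, Hoxa13, Hoxb9, Hoxb13, Hoxc11, Hoxc12, Hoxc13, Hoxd1, Hoxd3, Hoxd4, Hoxd8, Hoxd9, Hoxd10, Hoxd12 and Hoxd13, 15 in all. A count of 0 over the mock libraries allows up to 3 reads, or 0.0201 CPM, and over the smaller p140Cap libraries up to 0.0690 CPM. These limits, and the intervals given for rare genes, cover counting error only. On either limit the silent genes lay far under Hoxa5, at 23.1 CPM in mock cells.

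The tail end of the expressed HoxA stretch is visible in the reads. Hoxa10, which patterns the hind body and the uterus, still had 70, 31 and 24 reads in mock libraries and 15, 12 and 17 in p140Cap libraries. Its neighbour Hoxa11 had none in 6 libraries. In HoxB the step lay between positions 4 and 5 on one side and between 2 and 1 on the other. Hoxb4, a gene of blood stem cells and the hindbrain, had 224, 118 and 112 reads in mock libraries and 54, 53 and 40 in p140Cap libraries, while Hoxb5 had 1 read and Hoxb1 had 1 read in all 6 libraries together.

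Promoter sequences of expressed and silent HoxA genes are shown side by side, since CpG-rich promoters are where Polycomb and Trithorax proteins act. For 4 genes the 250 bases before the start annotated by RefSeq are printed 5′ to 3′ on the gene's strand, with each CpG in capitals: Hoxa3 and Hoxa7, which were higher in p140Cap cells, Hoxa5, which had the most reads per kb in mock cells and was not called, and Hoxa13, which had none. All are from GRCm38.p6, the assembly of the RefSeq table, on the minus strand, at chr6:52213068-52213317, chr6:52218574-52218823, chr6:52204588-52204837 and chr6:52260881-52261130.
Hoxa3: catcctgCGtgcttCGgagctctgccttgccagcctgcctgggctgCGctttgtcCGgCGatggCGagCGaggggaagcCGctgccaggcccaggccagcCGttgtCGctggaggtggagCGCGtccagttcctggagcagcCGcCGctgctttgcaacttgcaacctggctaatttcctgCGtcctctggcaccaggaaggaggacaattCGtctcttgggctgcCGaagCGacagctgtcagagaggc
Hoxa7: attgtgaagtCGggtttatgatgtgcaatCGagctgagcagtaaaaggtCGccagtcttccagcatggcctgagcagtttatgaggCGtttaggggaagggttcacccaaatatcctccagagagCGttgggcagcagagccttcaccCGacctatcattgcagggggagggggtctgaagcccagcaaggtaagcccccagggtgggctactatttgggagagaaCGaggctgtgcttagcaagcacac
Hoxa5: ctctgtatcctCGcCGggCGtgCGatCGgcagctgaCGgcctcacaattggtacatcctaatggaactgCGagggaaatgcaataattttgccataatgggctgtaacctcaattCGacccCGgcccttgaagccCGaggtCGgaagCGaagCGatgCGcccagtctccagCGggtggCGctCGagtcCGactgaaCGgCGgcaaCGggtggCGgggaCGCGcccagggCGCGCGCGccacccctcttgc
Hoxa13: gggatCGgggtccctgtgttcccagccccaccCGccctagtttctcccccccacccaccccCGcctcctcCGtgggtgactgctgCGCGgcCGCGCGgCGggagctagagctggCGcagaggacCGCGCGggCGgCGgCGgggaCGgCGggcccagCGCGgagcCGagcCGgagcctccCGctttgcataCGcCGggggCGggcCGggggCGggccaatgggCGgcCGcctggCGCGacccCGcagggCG

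Hoxa3 held 18 CpG in this window, Hoxa7 7, Hoxa5 28 and Hoxa13 35. Among HoxA genes not printed, Hoxa9, which was called higher, held 3 and Hoxa11, which had no reads, held 13. Of the 39 genes, 22 had a promoter in the RefSeq table, and 8 of these were tested genes with 9 promoters. The median number of CpG was 14 for these 9, 13 for the 10 promoters of Hox genes without reads and 6 for all 32851 promoters of the table. The letters TGATNNAT, a form of the site that Hox and Pbx proteins bind together, were found on either strand in 1 of the 9 promoters of tested genes (Hoxa2), in none of those 10 silent ones and in 7.68% of all promoters. AGGTCA, the half-site of retinoic acid receptors, stood in 1 of the 9 (Hoxb4), in 4 of the 10 (Hoxd3, Hoxd4, Hoxd8 and Hoxd10) and in 14.02% of all. A match describes letters only, and no match says only that these letters are not in this window. No Hox promoter of the table held both motifs.

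Compared per length, Hoxa5 had the highest level in mock cells, at 12.3 ± 0.4996 RPKM (CPM per kb of exon; SD, n = 3), followed by Hoxa7 at 7.66 ± 0.120 and Hoxa6 at 5.58 ± 0.569 RPKM. Hoxa3 had 4.49 ± 0.236 RPKM. Hoxa4 at 3.26 ± 0.216 and Hoxb2 at 3.13 ± 0.389 RPKM did not differ beyond their spread with this length, nor did Hoxa2 at 1.69 ± 0.156 and Hoxb3 at 1.66 ± 0.243 RPKM. Hoxb4 had 1.20 ± 0.0940 and Hoxc9 0.730 ± 0.0748 RPKM. Hoxa9, Hoxa10 and Hoxc6 were lowest, between 0.235 and 0.287 RPKM. The order depends on the length used. For Hoxa3, the annotated exons cover 6890 bases and the canonical transcript 2592. With the latter, Hoxa3 had 11.9 RPKM and stood at place 2 in mock cells, and 17.9 RPKM at place 1 in p140Cap cells. Hoxb2 then had 6.72 ± 0.833 RPKM in mock cells, above Hoxa4 by more than their spread, and Hoxb3 had 2.67 ± 0.391 RPKM, likewise above Hoxa2.

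Of the 14 Hox genes tested, 5 were higher in p140Cap cells and none was lower (edgeR quasi-likelihood, adjusted p below 0.05). None was lower at an unadjusted p below 0.05 by edgeR, nor called lower by DESeq2 or limma-voom. The 5 were Hoxa2, Hoxa3, Hoxa7, Hoxa9 and Hoxc6, and the 4 of HoxA were also called under each of 13 alternative analyses. Among all 11800 genes tested, 71.1% were called, 35.2% higher and 35.9% lower, against 5 of 14 Hox genes. The median standard error (SE) of the Hox genes was 0.13 on the log2 scale against 0.06 over all genes, and their median level was 2.36 log2 CPM against 5.24. Of the 14, 11 had a log2 fold change (log2FC) above 0, and the median was 0.20 against 0.00 over all genes tested. No Hox gene reached 1 log2 unit, a size at which 9.97% of all genes were called. The libraries of the groups did not overlap for 6 of the 14, and for 73.4% of all genes tested. These are counts of genes chosen by name and carry no test of the group. In bulk RNA, a lower or higher share of cells that use a gene and a change of its RNA per cell cannot be told apart.

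**Figure D2:**
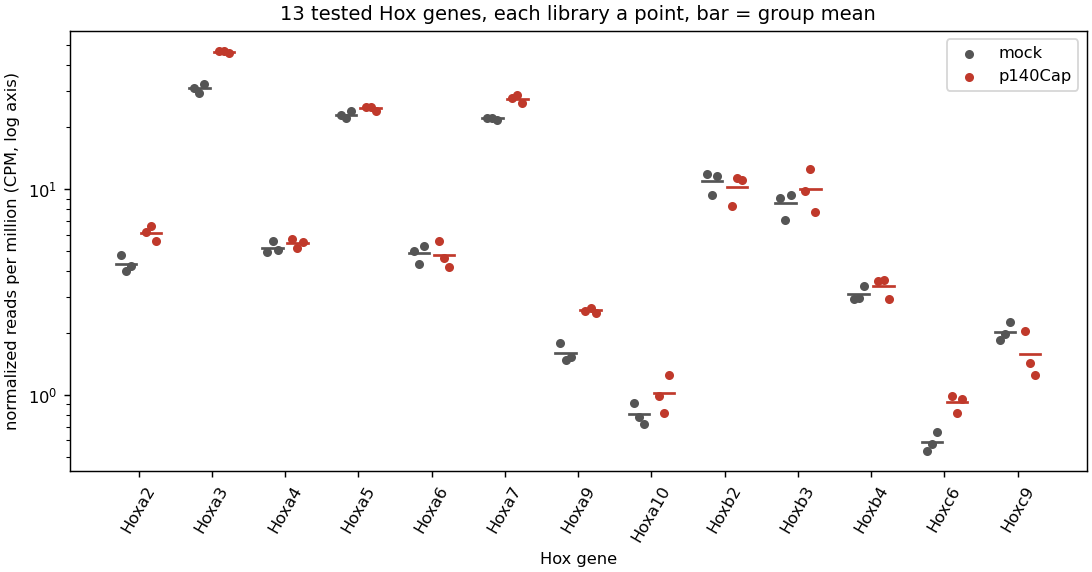
CPM on a log axis for 13 tested Hox genes, with each library a point (mock grey, p140Cap red) and the group mean a bar. The points of the groups are apart for Hoxa2, Hoxa3, Hoxa7, Hoxa9 and Hoxc6, and overlap for the other 8 genes.

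Hoxa3, which directs the pharyngeal arches, thymus and parathyroid, had the most reads and the smallest p. It had 31.2, 29.2 and 32.4 CPM in the mock libraries and 46.8, 46.9 and 45.9 CPM in the p140Cap libraries. Every p140Cap library was above every mock library, with a gap far wider than the spread within either group. The log2FC was 0.59 (SE 0.06, adjusted p = 1.09e-07, edgeR), or 1.504-fold. Hoxa3 (ENSMUSG00000079560) lies on chromosome 6 of GRCm38.p6 from 52169059 to 52213067 and spans Hoxa4, Hoxa5 and Hoxa6, with 6.996% of its exon bases shared with non-coding genes on its strand and none with a coding gene.

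Hoxa7 (ENSMUSG00000038236; chromosome 6, 52215623 to 52218573), a trunk gene also known from keratinocytes and leukemia, had 22.3, 22.3 and 21.7 CPM in mock libraries and 27.7, 28.7 and 26.2 CPM in p140Cap libraries. The groups did not overlap, and the rise was the smallest of the 5. Its log2FC was 0.32 (SE 0.06, adjusted p = 0.000248, edgeR).

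Hoxa2 (ENSMUSG00000014704; chromosome 6, 52162417 to 52164831), the selector gene of the second pharyngeal arch, was rarer, and shares 10.4% of its exon bases with non-coding genes on its strand. It was at 4.78, 4.00 and 4.23 CPM in mock libraries and at 6.20, 6.61 and 5.58 CPM in p140Cap libraries. Again each p140Cap library stood above each mock library. The log2FC was 0.48 (SE 0.12, adjusted p = 0.00186, edgeR).

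Hoxa9 (ENSMUSG00000038227; chromosome 6, 52223097 to 52227370), a regulator of blood progenitors and a common leukemia gene, had 1.79, 1.48 and 1.53 CPM in mock and 2.57, 2.66 and 2.497 CPM in p140Cap libraries. The 2 groups were apart, with p140Cap libraries close to each other, and 1.52% of its exon bases are shared with non-coding genes on its strand. Its log2FC of 0.65 (SE 0.17, adjusted p = 0.00257, edgeR) was of the size of that of Hoxa3 with a wider error.

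Hoxc6 (ENSMUSG00000001661; chromosome 15, 102998226 to 103011882), a gene of the forelimb and thoracic level also studied in mammary gland and prostate, was at the edge of what could be tested. It had 41, 23 and 22 reads in mock libraries and 15, 12 and 13 in p140Cap libraries, or 0.536, 0.578 and 0.661 CPM against 0.989, 0.817 and 0.955 CPM. The groups did not overlap and the log2FC was 0.67 (SE 0.28, adjusted p = 0.0395, edgeR). The call was lost under 9 of 13 alternatives, where the adjusted p reached 0.226. Among these were the analyses without mock replicate 1 (adjusted p = 0.124, edgeR), mock replicate 2 (0.0699) and p140Cap replicates 1 (0.137), 2 (0.0583) and 3 (0.104). The direction did not change in any of the 13.

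**Figure D3:**
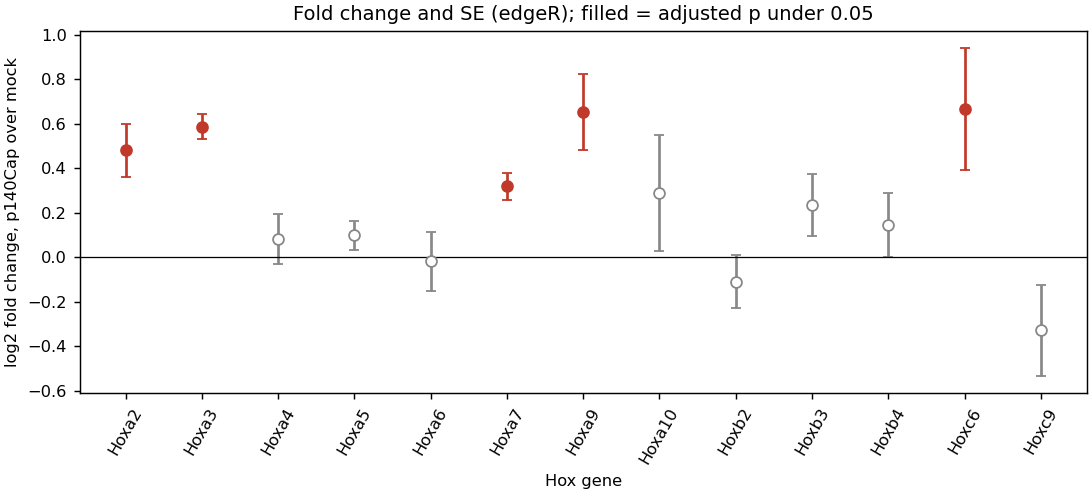
Log2FC of p140Cap over mock with its SE for 13 tested Hox genes, in cluster order. Filled red points passed an adjusted p under 0.05 (edgeR): 4 in HoxA with values from 0.32 to 0.65 and Hoxc6 at 0.67, whose call depended on the analysis.

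Other HoxA genes, some of them between the genes that rose, did not pass the test. Hoxa5, which acts in lung and mammary development, had 23.0, 22.2 and 24.0 CPM in mock and 25.0, 25.2 and 23.9 CPM in p140Cap libraries, which overlap. Its log2FC was 0.10 (SE 0.06, adjusted p = 0.174, edgeR), a value measured as closely as that of Hoxa7. Hoxa4 was at 0.08 (SE 0.11), Hoxa6 at -0.02 (SE 0.13) and Hoxa10 at 0.29 (SE 0.26), all with overlapping libraries. Over the 13 alternative analyses Hoxa10 ran from 0.04, with thinned libraries, to 0.43, without mock replicate 1. Hoxa6 ran from -0.15 to 0.07.

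Ratios of HoxA genes within single libraries do not depend on library scaling. For each read on Hoxa5 there were 1.36, 1.32 and 1.35 reads on Hoxa3 in mock libraries and 1.87, 1.86 and 1.92 in p140Cap libraries. Reads on Hoxa7 per read on Hoxa5 were 0.968, 1.01 and 0.903 in mock and 1.11, 1.14 and 1.10 in p140Cap libraries. For Hoxa9 they were 0.0638 to 0.0778 in mock and 0.103 to 0.105 in p140Cap libraries, and for Hoxa2 0.176 to 0.208 and 0.234 to 0.262. None of these 4 ratios to Hoxa5 overlapped between the groups. Reads on Hoxa3 per read on Hoxa4 did not overlap either, with 5.23 to 6.43 in mock and 8.16 to 9.05 in p140Cap libraries. The groups overlapped for 2 further HoxA pairs. There were 4.10 to 5.16 reads on Hoxa7 per read on Hoxa6 in mock and 4.95 to 6.26 in p140Cap libraries, and 1.90 to 2.12 on Hoxa9 per read on Hoxa10 in mock and 2.00 to 3.25 in p140Cap libraries. The pairs were chosen after the values had been seen, and an exact permutation test of 3 against 3 libraries cannot give a p below 0.1.

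HoxB genes of TuBo cells pattern the hindbrain and neck, and none was called. Hoxb2 had 11.9, 9.38 and 11.6 CPM in mock and 8.30, 11.3 and 11.1 CPM in p140Cap libraries, with a log2FC of -0.11 (SE 0.12, adjusted p = 0.424, edgeR). Over the 13 alternative analyses this log2FC ran from -0.20 to 0.02, the latter without p140Cap replicate 1. Hoxb3 had 9.07, 7.09 and 9.40 CPM in mock and 9.82, 12.5 and 7.71 CPM in p140Cap libraries, a wide spread, with a log2FC of 0.23 (SE 0.14, adjusted p = 0.144, edgeR). Both genes overlapped between the groups, and p140Cap replicate 3 held the lowest p140Cap value of Hoxb3. Without it Hoxb3 was called, with a log2FC of 0.38 (adjusted p = 0.0236, edgeR), and without p140Cap replicate 2, the highest, the log2FC was 0.04 (adjusted p = 0.808, edgeR). Hoxb4, at 2.93 to 3.36 CPM in mock and 2.94 to 3.61 CPM in p140Cap libraries, had a log2FC of 0.15 (SE 0.15, adjusted p = 0.381, edgeR).

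Within HoxC, Hoxc9 is a thoracic gene that represses neighbouring fates in motor neurons. It had 1.84, 1.99 and 2.25 CPM in mock and 2.04, 1.43 and 1.25 CPM in p140Cap libraries. Only p140Cap replicate 1 reached into the mock range. The log2FC was -0.33 (SE 0.21, adjusted p = 0.164, edgeR), and it was called lower without that library (-0.57, adjusted p = 0.0476, edgeR). Without p140Cap replicate 2 the value was -0.26 (adjusted p = 0.356, edgeR) and without replicate 3 it was -0.20 (adjusted p = 0.464, edgeR). Reads on Hoxc6 per read on Hoxc9 were 0.291 to 0.293 in mock and 0.484, 0.571 and 0.765 in p140Cap libraries, without overlap. These ratios rest on few reads, in p140Cap libraries 15, 12 and 13 on Hoxc6 and 31, 21 and 17 on Hoxc9. Their counting error was not computed. Reads on Hoxb3 per read on Hoxb2 overlapped, with 0.756 to 0.813 in mock and 0.695, 1.11 and 1.18 in p140Cap libraries. These pairs, too, were chosen after the values had been seen.

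The 10 other genes with reads were too rare to test. Hoxc5, beside Hoxc6, had 10, 2 and 2 reads in mock and 6, 3 and 3 reads in p140Cap libraries. Pooled over each group, its level in p140Cap cells was 2.95 times that in mock cells, and the 95% exact binomial interval ran from 1.25 to 6.87. Of the exon bases of Hoxc5, 5.37% are shared with Hoxc10. Hoxc4 had 14 reads in mock and 4 in p140Cap cells, a ratio of 0.983 with an interval of 0.236 to 3.13. The remaining 8 had reads in mock libraries only. Hoxc10 had 8, Hoxb8 6 (2 in each mock library) and Hoxb6 4 (all in mock replicate 1), and Hoxb1, Hoxb5, Hoxb7, Hoxc8 and Hoxd11 had 1 each. The highest of these levels, 0.0535 CPM for Hoxc10, is below the 0.0690 CPM that a count of 0 allows in p140Cap cells, so a loss was not detectable at this depth. With all libraries thinned to the smallest total, 21 Hox genes had reads in mock cells and 16 in p140Cap cells, against 24 and 16 before.

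All 8 tested genes within 1 Mb of HoxA were called, 5 higher and 3 lower (edgeR), where 71.1% of all genes tested were called, with a median log2FC of 0.37 and a range from -0.68 to 1.97. The nearest were Skap2, an adaptor of Src-family signalling 143 kb away, which rose by a log2FC of 0.56 (SE 0.05, adjusted p = 1.83e-08, edgeR), and Hibadh, an enzyme of valine breakdown on the other side, which rose by 0.63 (SE 0.05, adjusted p = 1.33e-08, edgeR). Skap2 had 199 to 209 CPM in mock and 289 to 303 CPM in p140Cap libraries, and Hibadh 71.3 to 77.0 and 109.7 to 118.8 CPM.

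Around HoxB, 14 of 32 tested genes were higher and 10 lower, with a median of 0.05, beside 35.2% higher and 35.9% lower among all genes tested. The nearest were Atp5g1, a subunit of ATP synthase, at -0.29 (SE 0.08, adjusted p = 0.00257, edgeR) and the sorting nexin Snx11 at -1.04 (SE 0.10, adjusted p = 6.9e-08, edgeR). Around HoxC, 13 of 28 were higher and 8 lower, with a median of 0.10, beside the same shares. On its sides lay Calcoco1, an autophagy receptor, at 1.26 (SE 0.06, adjusted p = 2.83e-11, edgeR) and Smug1, a DNA glycosylase, at 0.03 (SE 0.06, adjusted p = 0.63, edgeR). The HoxD cluster, with its single read, stood between genes with many reads. Mtx2, a mitochondrial import gene 60.7 kb away, had 67.1 to 69.1 CPM in mock and 50.8 to 52.7 CPM in p140Cap libraries, a log2FC of -0.39 (SE 0.05, adjusted p = 2.18e-06, edgeR), and Atp5g3 on the other side had 340.0 to 358.1 and 284.6 to 298.6 CPM, at -0.27 (SE 0.05, adjusted p = 8.2e-05, edgeR). Of 5 tested genes around HoxD, 3 were lower and none higher, where 71.1% of all genes were called.

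**Figure D4:**
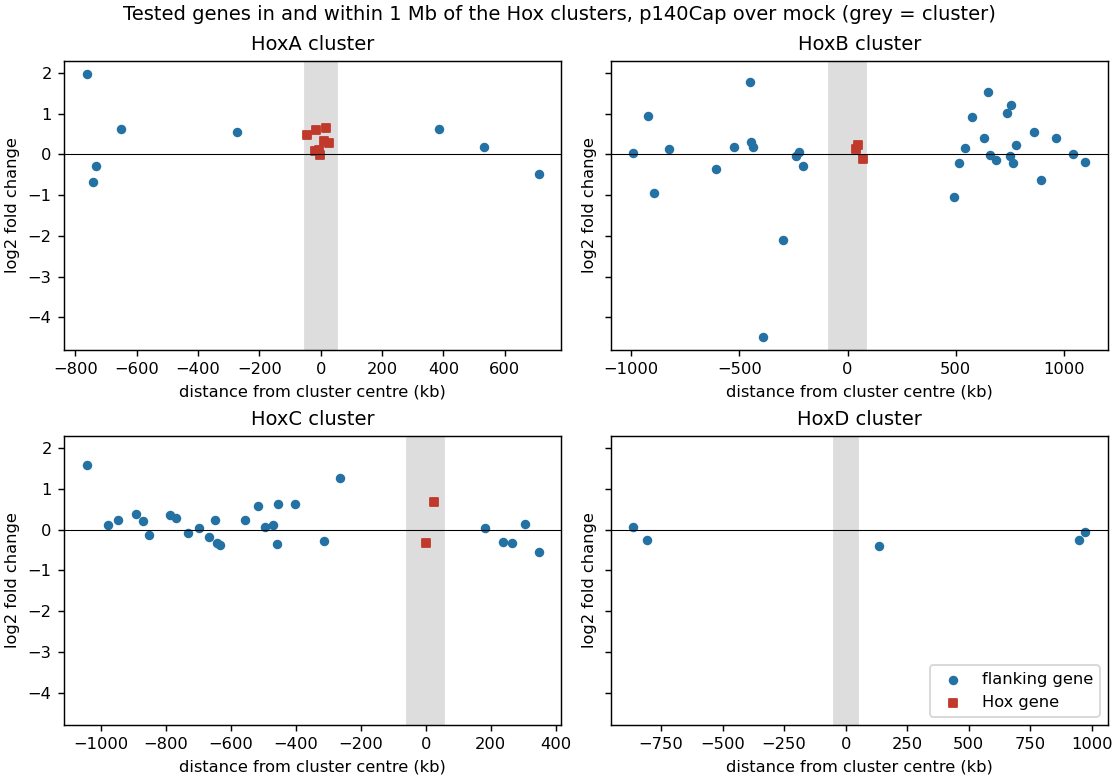
Log2FC (p140Cap over mock) of tested Hox genes (red squares) and of tested genes within 1 Mb (blue circles) against the distance from the centre of each cluster in kb, with the cluster in grey. HoxA members lie between -0.02 and 0.65 and their flanking genes between -0.68 and 1.97, and HoxD has no tested member.

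Hox proteins bind DNA with partners of the TALE homeodomain class, the Pbx, Meis and Pknox (Prep) proteins. Of the 9 genes of this list, 7 were tested and all 7 were called, 4 higher and 3 lower in p140Cap cells (edgeR), where 71.1% of all genes tested were called. Meis2 rose from 4.05 ± 0.416 to 7.12 ± 0.303 CPM (SD, n = 3 libraries each), a log2FC of 0.79 (SE 0.11, adjusted p = 1.04e-05, edgeR). Pbx3 fell from 20.0 ± 0.188 to 12.0 ± 1.36 CPM, a log2FC of -0.74 (SE 0.08, adjusted p = 4.18e-07, edgeR). Pknox2 fell too, with a log2FC of -0.70 (SE 0.17, adjusted p = 0.00141, edgeR), and Meis3 rose by 0.47 (SE 0.10, adjusted p = 0.000593, edgeR). Meis1, the frequent partner of Hoxa9 in leukemia, had no read in any library, although Hoxa9 was expressed.

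Polycomb complexes place and read the histone marks that keep Hox genes silent. Of 31 genes listed, 30 were in the counts and tested, 7 of them higher and 12 lower (edgeR) against 71.1% of all genes called, with a median log2FC of -0.05. The 2 alternative catalytic subunits of the Polycomb complex that methylates H3K27 went opposite ways. Ezh1 rose from 40.7 ± 1.36 to 85.9 ± 6.35 CPM, a log2FC of 1.08 (SE 0.06, adjusted p = 9.24e-11, edgeR). Ezh2 fell from 166.7 ± 5.97 to 131.8 ± 7.87 CPM, a log2FC of -0.34 (SE 0.05, adjusted p = 2.16e-05, edgeR).

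Phf19, which guides that complex to its sites, had the largest change of the list, from 4.73 to 5.41 CPM in mock to 0.272 to 0.514 CPM in p140Cap libraries (log2FC -3.66, SE 0.23, adjusted p = 4.57e-10, edgeR). Pcgf5 and Pcgf6, subunits of variant Polycomb ubiquitin ligases, fell by 1.11 each on the log2 scale (SE 0.06 and 0.07). Bmi1, a subunit of the canonical ligase, fell from 153.2 ± 3.86 to 97.3 ± 3.99 CPM (SD, n = 3 libraries each).

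Trithorax genes and the demethylases that remove the Polycomb mark were called in 16 of 20 cases, 8 higher and 8 lower (edgeR), against 71.1% of all genes, with a median log2FC of 0.01. Wdr5, a core subunit of H3K4 methyltransferases, fell from 87.9 ± 0.930 to 50.8 ± 1.05 CPM, a log2FC of -0.79 (SE 0.05, adjusted p = 5.1e-10, edgeR). Psip1, which tethers the MLL complex to chromatin, fell by 0.54 (SE 0.05, adjusted p = 1.6e-07, edgeR). Aff1, an elongation factor gene fused to MLL in leukemia, rose by 0.63 (SE 0.05, adjusted p = 5.18e-09, edgeR), and Kdm6b, an H3K27 demethylase, rose by 0.60 (SE 0.07, adjusted p = 1.1e-06, edgeR). Kmt2a, the methyltransferase MLL that maintains Hox expression, had 205.9 to 238.8 CPM in mock and 238.6 to 271.9 CPM in p140Cap libraries. Those values overlapped slightly, and its log2FC was 0.23 (SE 0.06, adjusted p = 0.00411, edgeR).

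Retinoic acid and the caudal (Cdx) factors are the classical inputs of Hox clusters in the embryo. Of 21 genes listed, 10 were tested, and 5 were higher and 3 lower (edgeR), against 71.1% of all genes called. Cyp26b1, which breaks down retinoic acid, rose from 20.2, 17.5 and 20.8 CPM in mock to 49.6, 58.6 and 42.9 CPM in p140Cap libraries, a log2FC of 1.37 (SE 0.09, adjusted p = 1.34e-09, edgeR). Stra6, a receptor for retinol uptake, fell from 2.59 ± 0.328 to 0.744 ± 0.214 CPM, a log2FC of -1.83 (SE 0.24, adjusted p = 3.47e-06, edgeR). The receptors Rara and Rarb moved in opposite directions, by 0.56 (SE 0.07, adjusted p = 1.46e-06, edgeR) and -0.51 (SE 0.07, adjusted p = 2.96e-06, edgeR). Cdx1 and Cdx4 had no reads, and Cdx2 stayed at or below 0.198 CPM in every library.

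**Figure D5:**
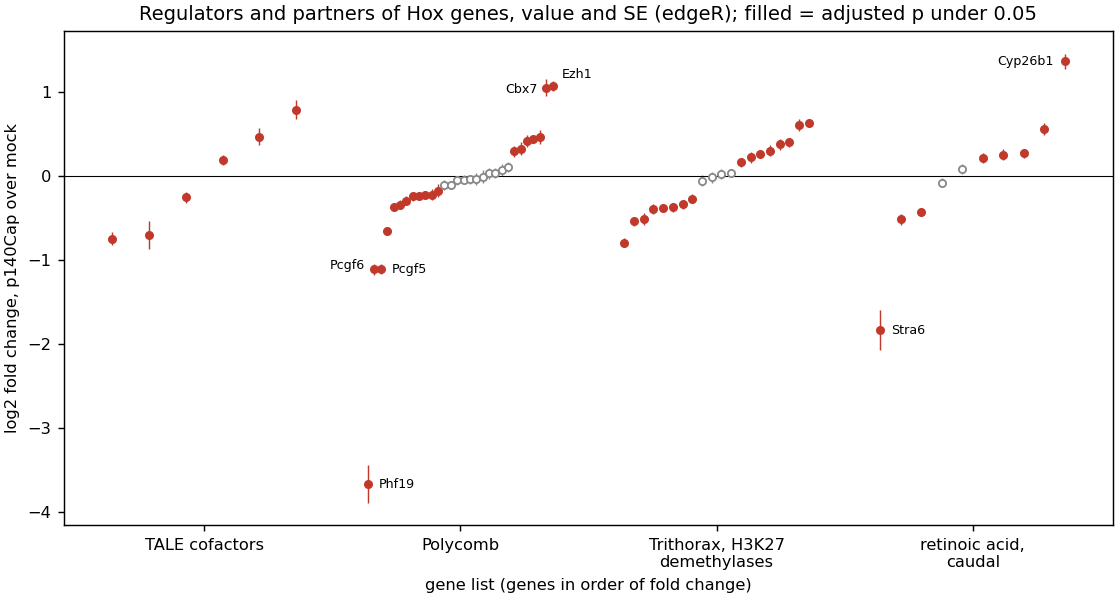
Log2FC (p140Cap over mock) with SE for tested genes of 4 lists of Hox partners and regulators, in order of value within each list, filled red where the adjusted p was under 0.05 (edgeR). Points lie on both sides of 0 in each list, and the lowest is Phf19 at -3.66 and the highest Cyp26b1 at 1.37.

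Annotated exons on the other strand cover part of 10 of the 14 tested Hox genes. They cover 22.2% of the exon bases of Hoxa3, 20.3% of Hoxa7, 14.5% of Hoxa2 and 9.35% of Hoxa9, which were called, and none of Hoxc6. Among genes that were not called they cover 51.5% of Hoxb3, 29.7% of Hoxb2, 19.0% of Hoxa10, 15.997% of Hoxa4 and 13.3% of Hoxc9, and none of Hoxa5, Hoxa6 or Hoxb4. Libraries were made with a stranded kit, but whether reads were counted by strand is not stated. Reads of these genes and of their antisense partners therefore cannot be told apart, and the part of antisense RNA in the values was not tested.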

How the data were processed

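RNA-Seq of 3 mock and 3 p140Cap TuBo libraries was analysed. The authors deposited counts, whole numbers of reads per gene and library, without normalization. Stranded libraries, Illumina NextSeq sequencing and docker4seq are given in the study's methods. STAR 2.5, RSEM 0.1.1 and mm10 stand in the submitters' processing notes without a role. With RSEM named, the counts may be rounded estimates, which divide reads among overlapping transcripts. Annotation release and strand setting are not stated there.

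Counts were scaled with TMM factors, filtered with filterByExpr, and tested by quasi-likelihood in edgeR 4.0.16 (R 4.3.3, condition alone, Benjamini-Hochberg adjustment over 11800 genes, threshold 0.05). CPM used the TMM-adjusted library sizes. SE was taken as |log2FC| over the root of the F value. RPKM used exon lengths of GENCODE vM39 (GRCm39) by gene identifier, since only lengths were needed. Positions and promoters are from RefSeq GRCm38.p6, by symbol. That assembly matches mm10, whereas the study's text names GRCm39, so the build behind the counts is uncertain. The counts carry no coordinates. On simulated counts for this comparison (11791 genes, 200 changed), 99.0% of genes changed by 1 log2 unit and 100% of those changed by 2 were called. The changed genes were drawn from those with a mean above 1 CPM, and all genes were given the same dispersion. No change below 1 log2 unit was simulated, so these shares do not cover changes of the size of the Hox genes.

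Hox genes with a read were named. Values of 2 genes are not reported here, though they stay in the counts. From each list, markers included, the called genes of largest change (4 at most), and Ezh2, Bmi1, Kmt2a and Meis1, were named, with the nearest tested gene on each side of a cluster. Markers without a read, Krt5, Krt14, Krt18, Krt19, Trp63 and the Cdx genes were named after their values were seen. Members and lists were chosen with earlier results of these data known. The list of non-coding genes of the clusters matched 0 rows and is not analysed here. No library was a copy of another: the mean chi-square value between libraries of a group was 1.75 to 10.7, against 1 for sampling noise.

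Alternatives were RLE factors, no low-count filter, at least 10 reads in every library, DESeq2 1.42.0, limma-voom (limma 3.58.1), thinning to the smallest total, leaving out each library, and the replicate number as a block. The length of the canonical transcript was added after seeing the data.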

Additional observations from a re-analysis of the deposited data

How the results depend on the processing

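Hoxa2, Hoxa3, Hoxa7 and Hoxa9 kept their direction and their call under all 13 alternatives tried for them, and no called Hox gene changed sign. Their log2 fold changes lay from 0.42 to 0.58, 0.55 to 0.61, 0.29 to 0.37 and 0.55 to 0.77. Hox genes called higher numbered 5 in the main analysis and with RLE factors, at least 10 reads in every library and limma-voom. They numbered 4, without Hoxc6, with DESeq2, with no low-count filter and with thinned libraries, and 4 to 5 with single libraries left out. The 5 included Hoxc6 without mock replicate 3, and Hoxb3 in place of Hoxc6 without p140Cap replicate 3. No Hox gene was called lower except when p140Cap replicate 1 was left out (0 to 1 over the 6 leave-one-out analyses, Hoxc9). With at least 10 reads over a group required, 16 Hox genes had reads in mock cells and 15 in p140Cap cells. Replicate numbers did not pair the samples, since the correlations of same-numbered libraries were -0.03, -0.11 and -0.06. With the replicate block, 4 Hox genes were called higher, Hoxc6 being lost at an adjusted p of 0.0637, and 8034 genes in all against 8388. Genes near 1 read per library limit the description of silent loci, since 1 read was worth 0.0131 CPM in mock replicate 1 and 0.0734 CPM in p140Cap replicate 3.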
